A study of Caenorhabditis elegans with 6 samples.

Results

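The aspartic and cysteine proteases of *C. elegans* were taken as the genes whose WormBase symbol begins with *asp-*, *cpr-*, *cpl-* or *cpz-*. This rule found 26 of the 20138 genes in the deposited table, 15 aspartic and 11 cysteine proteases. Of these, 21 carried enough reads to be compared between groups, 11 aspartic and 10 cysteine proteases. The libraries were made from polyadenylated RNA of whole day 1 adult worms raised from the egg on concentrated OP50 bacteria without treatment, and each held a pool of worms. The labels give 3 biological replicates of wild type (WT) and 3 of *fmo-4* overexpression (*fmo-4* OE). The study describes a ubiquitous *fmo-4* OE strain, made as an array driven by a promoter active throughout the body and then integrated at random, and a strain with *fmo-4* OE in the hypodermis, and the labels do not say which was sequenced. Because each library holds whole worms, a change in the amount of a tissue cannot be told apart from a change in the RNA per cell, and the tissue in which a protease was made cannot be read from these counts.

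Aspartic proteases related to cathepsin D cut proteins at acid pH with a pair of aspartate residues. Cysteine proteases of the cathepsin B (*cpr*), cathepsin L (*cpl*) and cathepsin Z (*cpz*) types use a cysteine and a histidine. Both kinds are made as inactive precursors, and in the worm they serve digestion in the gut lumen and breakdown of proteins in lysosomes, where the V-ATPase proton pump keeps the pH low. Worms digest bacteria with these enzymes, and several members, *asp-1* and *cpr-1* among them, are known for expression in the intestine. Members are known for roles outside digestion too, *cpl-1* in yolk processing and in the embryo and *cpz-1* in molting.

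Total reads ranged from 17576872 to 24943501 per library. Summed normalized counts of the 15 aspartic proteases were 73882, 81648 and 102972 in WT and 71302, 80617 and 75942 in those labelled *fmo-4* OE. For the 8 cathepsin B-like genes these sums were 52364, 60519 and 84779 in WT and 48955, 59158 and 61425 in the other group, so WT replicate 3 was highest in both families. The proteases took 0.801%, 0.932% and 1.07% of all reads in WT replicates 1 to 3 and 0.785%, 0.862% and 0.859% in those labelled *fmo-4* OE. The *fmo-4* gene itself drew 522, 397 and 525 reads in WT against 372, 476 and 368 under the *fmo-4* OE label, and its log2 fold change was -0.24 (standard error, SE, 0.18), with an adjusted p-value of 0.947 in edgeR. No excess of *fmo-4* reads was thus seen under the label. By qPCR, the study reports *fmo-4* RNA far above WT in both of its OE strains, which these reads do not show. Every direction given here is therefore between libraries by their label. The libraries fell into 2 sets in composition. Genes shorter than 500 bases took 4.34% and 4.06% of reads in *fmo-4* OE replicates 2 and 3 and 4.48% in WT replicate 3, against 2.60%, 2.68% and 2.62% in WT replicates 1 and 2 and *fmo-4* OE replicate 1. No protease is that short (767 to 2391 bases). This division crosses the labelled groups, with 1 WT and 2 *fmo-4* OE libraries on the high side.

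Levels of the proteases in WT spanned more than 3 orders of magnitude among the genes compared. Levels between genes are given as RPKM, the reads scaled to the deposited gene length and to the TMM-adjusted library size, as mean ± SD over 3 libraries. The cathepsin L gene *cpl-1* (T03E6.7) was the most abundant at 1415 ± 152 RPKM in WT, rank 88 among all genes of the table. It was followed by *asp-1* (Y39B6A.20) at 993 ± 286, *cpr-9* (F57F5.1) at 824 ± 53.1 and the cathepsin B gene *cpr-6* (C25B8.3) at 747 ± 104 RPKM. Then came *asp-6* (F21F8.7) at 503 ± 297, the lysosomal *asp-3* (H22K11.1) at 448 ± 49.7, *cpr-1* (C52E4.1) at 437 ± 365, *cpz-1* (F32B5.8) at 336 ± 106, *asp-5* (F21F8.3) at 291 ± 43.8 and *cpr-5* (W07B8.5) at 283 ± 165 RPKM. *asp-4* (R12H7.2), the cathepsin D ortholog known with *asp-3* from necrotic cell death, had 257 ± 54.9 RPKM. *cpr-4* (F44C4.3), a secreted cathepsin B known from signaling between irradiated and other tissues, had 223 ± 114, *asp-2* (T18H9.2) 204 ± 19.6 and *asp-13* (F28A12.4) 177 ± 10.9 RPKM. In this order of 14 abundant genes, the WT ranges of all 13 pairs of neighbors overlapped. This does not show equal levels, since both genes of a pair were read in the same libraries. For example, *cpl-1* lay above *asp-1* in each WT library, with 1240, 1492 and 1514 against 823, 834 and 1323 RPKM. The other pairs were not compared library by library. Below *asp-13* came a step at which the WT ranges did not overlap. The gene below it, *asp-14* (K10C2.3), had 32.9 ± 10.1 RPKM, and *cpz-2* (M04G12.2) had 19.6 ± 3.68. *asp-12* (F21F8.4), *cpr-8* (W07B8.1), *asp-8* (F59D6.3), *cpr-3* (T10H4.12) and *asp-17* (Y39B6A.24) lay between 8.20 and 1.04 RPKM. By reads rather than per length, the 4 genes with most normalized counts held 54.8% of the protease counts in WT, and 10 genes held 86.6%.

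**Figure D1:**
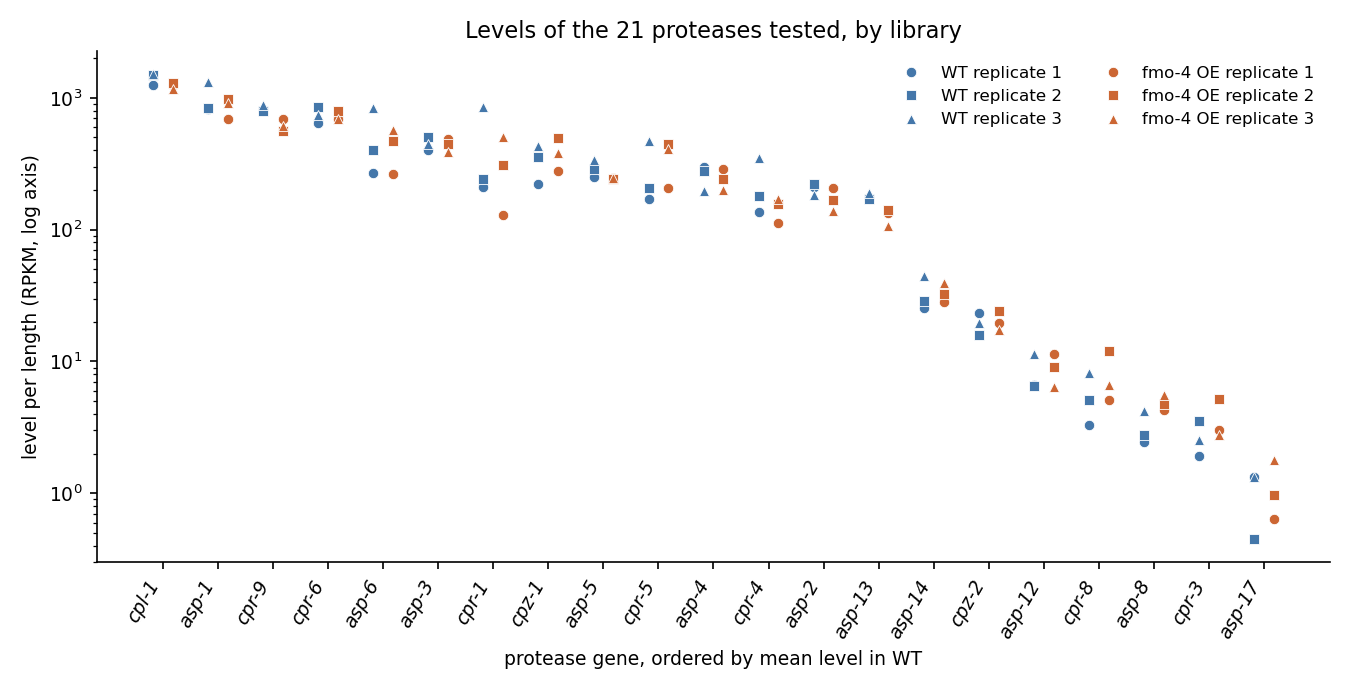
Level per length (RPKM, log axis) of the 21 proteases compared, 1 point per library, in blue for WT and orange for libraries labelled *fmo-4* OE, with 1 symbol per replicate number. The genes are ordered by their mean in WT, from *cpl-1* at 1415 to *asp-17* at 1.04 RPKM, and a gap separates 14 abundant genes (177 RPKM or more) from 7 others (32.9 RPKM or less).

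The 5 genes that were not compared had at most 9 reads in any library. *asp-11* (F21F8.2, a pseudogene in the RefSeq annotation) had 7, 2 and 7 reads in WT, against 0, 2 and 2 in those labelled *fmo-4* OE. *asp-9* (C11D2.2) had 2, 2 and 3 reads and 5, 1 and 9. *cpr-2* (F36D3.9) had 0, 0 and 5 reads and 2, 2 and 1. *asp-7* (F59D6.2) had 1 read in WT replicate 3 and 1 in *fmo-4* OE replicate 2, and *asp-15* (Y39B6A.22) had 4 reads, all in *fmo-4* OE replicate 3. With so few reads, no difference between groups is read for any of them, and they entered only the fit with no filter. The RefSeq annotation names 3 further members, which were not analysed here.

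Most of the family lies on chromosome V, with 20 of the 26 genes (76.9%, against 22.0% of all genes in the table). *asp-3*, *asp-4*, *asp-14* and *cpr-6* are on X, *cpz-1* is on I and *asp-9* on IV. Coordinates are as deposited, without a stated build, and all 26 genes lie on the chromosome that WBcel235 gives. Several members are close neighbors, yet their levels were far apart. On chromosome V, *asp-6* (8267546 to 8268937, minus strand), *asp-12* (8269254 to 8272058, plus), *asp-5* (8272375 to 8274047, plus) and *asp-11* (8274619 to 8275757, plus) follow each other with 316, 316 and 571 bases between them. Their WT levels were 503, 8.20, 291 and 0.327 RPKM. *cpr-5* (1132597 to 1133993, minus) and *cpr-8* (1134603 to 1139171, plus) are 609 bases apart, with 283 and 5.54 RPKM. *asp-1* (19049458 to 19050755, minus) had 993 RPKM, while *asp-15*, 4604 bases away, had no read in WT, which allows up to 3 reads. How reads shared by similar members were counted is not given in the sources used here, so the low levels beside an abundant neighbor are uncertain. The labels describe both directional and other libraries, so use of strand is not known either.

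Within a group, levels of some proteases differed several-fold between libraries. Normalized counts below are reads scaled to the mean effective library size. *cpr-1*, a cathepsin B gene known for expression in the gut, had 4869, 5558 and 19767 normalized counts in WT replicates 1 to 3, and 2963, 7171 and 11542 in those labelled *fmo-4* OE. WT replicate 3 was thus 4.06-fold above the lowest WT library, and the highest library labelled *fmo-4* OE was 3.90-fold above the lowest, while the groups overlapped. *asp-6* had 6852, 10336 and 21447 in WT and 6822, 12139.5 and 14522 in those labelled *fmo-4* OE. *cpr-5* had 4105, 4949.8 and 11345 in WT and 4952, 10762 and 9851 in the other group. In both genes, as in *cpr-1*, *fmo-4* OE replicates 2 and 3 and WT replicate 3 were the highest libraries, and the groups overlapped. *cpr-4* differed in that WT replicate 3 alone stood out, with 3154, 4187 and 8153 normalized counts in WT and 2623, 3603 and 3946 in those labelled *fmo-4* OE. *asp-1* had 23337, 23648 and 37539 in WT and 19599, 27787 and 26036 in the other group, again lowest in *fmo-4* OE replicate 1 and highest in WT replicate 3.

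Not every abundant protease followed this order. *cpl-1* had 30552, 36753 and 37295 normalized counts in WT and 30809.7, 31957 and 28707 in those labelled *fmo-4* OE, a narrow range without a set of high libraries. *asp-3* had 12141, 15139 and 13425 in WT and 14614, 13524 and 11687 in the other group. *cpr-6* had 16898, 22292 and 19297 in WT and 18111, 20774 and 17877 in those labelled *fmo-4* OE. For these 2 genes the groups overlapped almost fully. *asp-4* went the other way, with 9113, 8450.1 and 5946 in WT and 8774, 7348 and 6104 in the other group, lowest in the 3 libraries rich in short genes. *cpz-1*, the cathepsin Z gene known from molting, had 4739, 7611 and 9234 in WT and 6000.3, 10570.5 and 8152 in those labelled *fmo-4* OE. Its 3 highest libraries were again those rich in short genes.

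**Figure D2:**
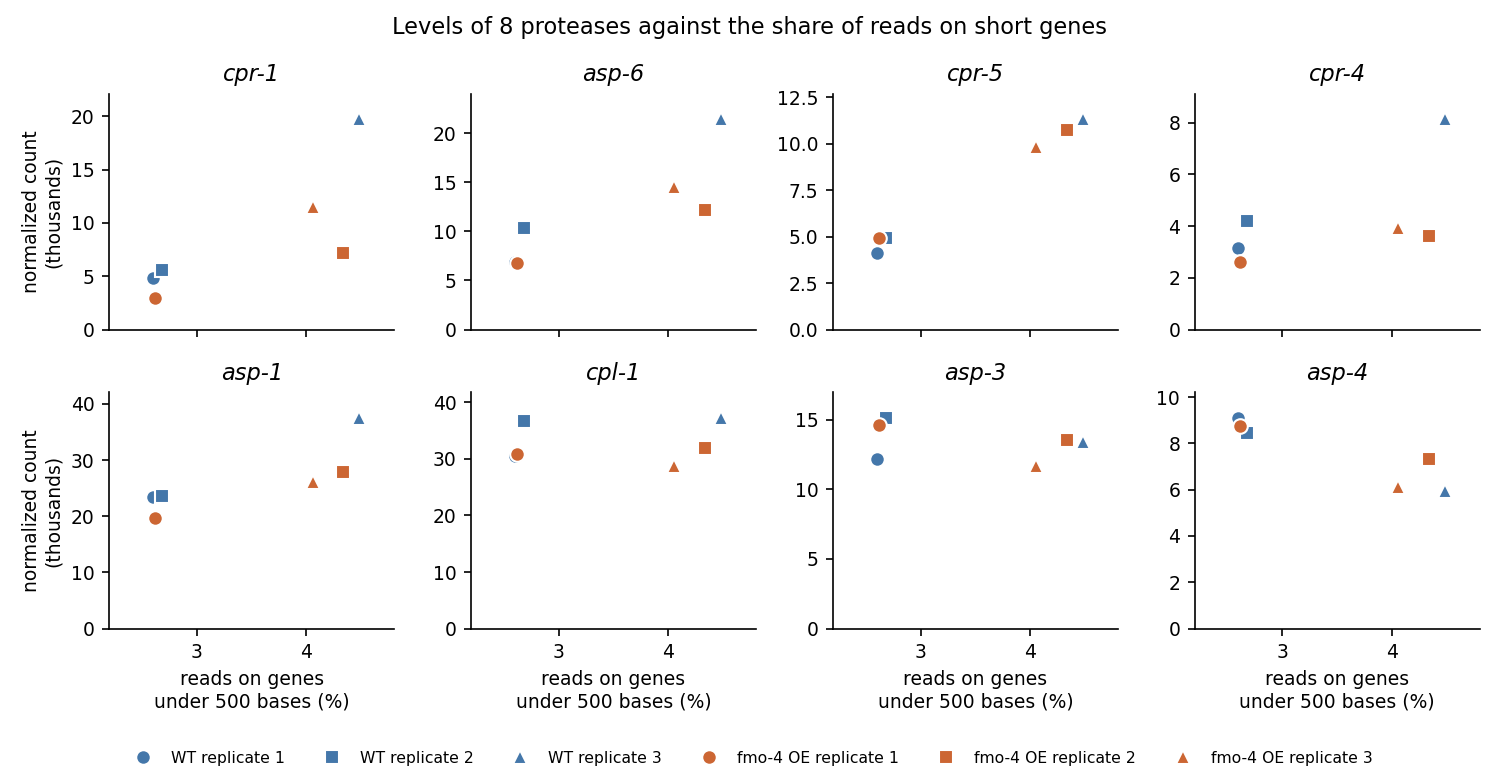
Normalized counts (y axis, from 0, scale as marked) of 8 abundant proteases against the percentage of a library's reads on genes shorter than 500 bases (x axis), 1 point per library, blue for WT and orange for libraries labelled *fmo-4* OE. The libraries form 2 sets on the x axis, at 2.60% to 2.68% and at 4.06% to 4.48%, and *cpr-1*, *asp-6*, *cpr-5* and *asp-1* are higher in the second set, *asp-4* lower, and *cpl-1* and *asp-3* in neither order.

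Counted over the 21 genes, the 3 libraries rich in short genes were the 3 highest for 7 genes (*asp-1*, *asp-6*, *asp-14*, *cpr-1*, *cpr-5*, *cpr-8* and *cpz-1*), against 19.8% of all genes tested, and the 3 lowest for 2 genes (*asp-2* and *asp-4*), against 19.6%. WT replicate 3 was the highest WT library for 15 of the 21, against 36.7% of all genes tested. The spread within a group was put as the pooled SD of log2 normalized counts, among the 16 proteases and 5632 genes with a mean of at least 500 normalized counts. *cpr-1* had an SD of 1.06 and exceeded 98.7% of these genes, *asp-6* with 0.71 exceeded 96.3%, *cpr-5* with 0.70 exceeded 96.1% and *cpr-4* with 0.54 exceeded 92.7%. At the other end were *cpr-9* with 0.12 (18.1%), *cpl-1* with 0.13 (19.9%), *asp-5* with 0.15 (30.1%) and *asp-3* with 0.16 (33.3%). The median was 0.28 over the 16 proteases and 0.21 over the 5632 genes.

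Markers of other tissues moved between libraries as well, and their part in these values was not tested. The summed normalized count of 10 gut markers was 16960.3, 17880 and 25192 in WT and 14412, 20675 and 18866 in those labelled *fmo-4* OE, also highest in WT replicate 3 and lowest in *fmo-4* OE replicate 1. None of these markers was at 0 in a library. They did not move together, and the 3 libraries rich in short genes were the 3 highest for 3 of the 10. Of these 3, *act-5*, the actin of gut microvilli, had 5603, 7120.3 and 12023 in WT and 5274, 11260 and 9643 in the other group. The regulator of gut genes *elt-2* had 106, 155 and 180.4 in WT and 104, 215 and 217 in those labelled *fmo-4* OE. Other gut markers had lower levels under the *fmo-4* OE label without overlap of the groups, namely *vha-6*, a V-ATPase subunit (log2 fold change -0.42, unadjusted p-value 0.0368), the peptide transporter gene *pept-1* (-0.31, 0.0680) and the esterase gene *ges-1* (-0.31, 0.103). *elt-7*, a further gut marker, was higher without overlap (0.17, 0.475), where 5.85% of all genes tested were higher and 5.26% lower without overlap. The acyl-CoA synthetase gene *acs-2* had -0.57 (0.0755), with overlap. Of the 10 gut markers, 1 was lower at an unadjusted p-value under 0.05 (*vha-6*) and 0 were higher, with a median of -0.09. The summed count of 6 hypodermis markers was 12399.8, 14529 and 32002 in WT and 11632, 25615 and 26142 in those labelled *fmo-4* OE, with 1 marker at 0 in WT replicate 2 and in *fmo-4* OE replicate 1. Most of this sum came from *col-19*, with 9228, 11572 and 29617 in WT and 8668, 22642 and 22790 in the other group. These markers did not move together either, since *lin-26* was lowest in WT replicate 3. The 3 libraries rich in short genes were the 3 highest for 1 of the 4 compared. The summed count of 9 sperm markers was 1089, 315 and 804 in WT and 293, 333 and 271 in those labelled *fmo-4* OE, so it was higher in WT replicates 1 and 3 than elsewhere. Of 8 sperm markers compared, 3 were lower at that threshold, and the median log2 fold change over the 8 was -1.28 (*smz-2* -1.76, 0.00530), and of 4 hypodermis markers compared 1 was higher (*dpy-7*, 2.18, 0.0403). The groups overlapped for *dpy-7*, with 17.2, 162 and 29.9 normalized counts in WT and 133, 360 and 442 in the other group. Of the markers compared for oocyte and germline (8), body muscle (4), pharynx (5) and coelomocytes (2), 0 passed an unadjusted p-value of 0.05, and of 4 neuron markers 1 was higher (*unc-119*, 0.53, 0.0272). For comparison, 4.32% of all genes tested were higher and 3.01% lower at that threshold.

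The libraries labelled *fmo-4* OE were then compared with WT over all 13413 genes past a filter on low counts, with the quasi-likelihood test of edgeR and Benjamini-Hochberg adjustment over all of them. After adjustment, 0 of the 21 proteases passed 0.05, where 0.0447% of all genes did. The smallest adjusted p-value was 0.583. DESeq2 called 0 proteases too, where 0.746% of all genes passed. With no adjustment, at a p-value under 0.05, 2 of the 21 were lower, where 3.01% of all genes were, and 0 were higher, where 4.32% of all genes were. The median log2 fold change was -0.04 over the 21 proteases and -0.02 over all genes tested, and it was -0.08 for the 11 aspartic and 0.00 for the 10 cysteine proteases. Of the 14 abundant genes, 12 had a value below 0, and all 7 of the others a value above 0, a split by level that was seen in the data and not tested. Over all genes tested, 47.2% had a value above 0, and the shares among abundant and rare genes in general were not counted. Some of the protease values lay near 0, such as -0.03 for *asp-3* and 0.02 for *asp-14*.

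The 2 genes at an unadjusted p-value under 0.05 were *cpr-9* and *asp-13*. *cpr-9* had 23210.3, 23321 and 25958 normalized counts in WT and 20104, 16436 and 17983 in those labelled *fmo-4* OE, all of which lay below WT. Its log2 fold change was -0.41 (SE 0.13), with an unadjusted p-value of 0.0162 and an adjusted p-value of 0.583. *asp-13* had 4672, 4737 and 5222 in WT and 3688, 3898 and 2910.1 in the other group, again without overlap. Its log2 fold change was -0.48 (SE 0.14), with an unadjusted p-value of 0.0105 and an adjusted p-value of 0.583. These were the only 2 of the 21 proteases whose fold between the groups exceeded the spread over the WT libraries, which is larger than that fold for 87.7% of all genes tested. The unadjusted call of *asp-13* held under every setting tried, and that of *cpr-9* was lost on leaving out WT replicate 3 (-0.36) or either *fmo-4* OE replicate 2 (-0.35) or 3 (-0.40).

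Groups did not overlap for 4 of the 21 proteases, lower for 3 (against 5.26% of all genes tested) and higher for 1 (against 5.85%). Beside *cpr-9* and *asp-13*, the lower gene was *asp-5*, with 6474, 7400.5 and 8727 normalized counts in WT and 6422, 6303 and 6388 in those labelled *fmo-4* OE. Its log2 fold change was -0.24 (SE 0.14), with an adjusted p-value of 0.824, and it reached an unadjusted p-value of 0.0432 without WT replicate 1. The higher gene was *asp-8*, a low-abundance gene with 74.9, 83.6 and 128 normalized counts in WT and 130.3, 145 and 169.8 in the other group. Its log2 fold change was 0.64 (SE 0.28), with an unadjusted p-value of 0.0534 and an adjusted p-value of 0.685. Its unadjusted p-value passed 0.05 under 7 of the other settings, between 0.0140, without WT replicate 3, and 0.0469, when *fmo-4* OE replicate 1 was left out.

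**Figure D3:**
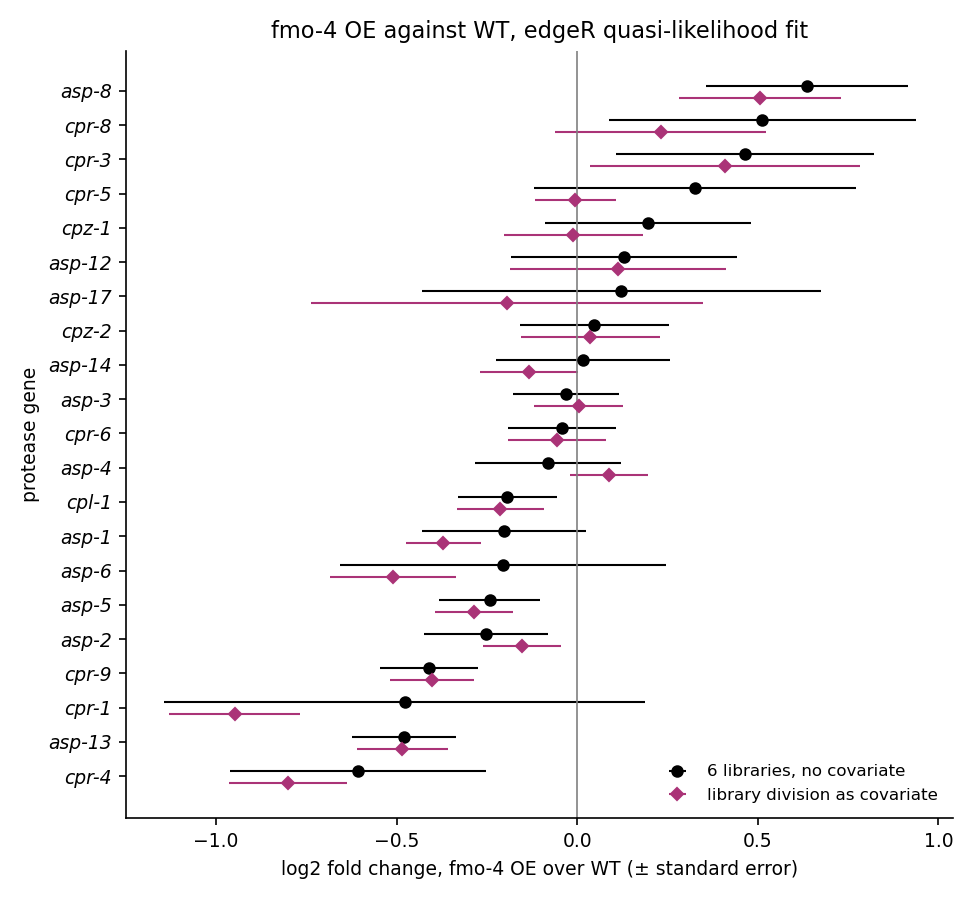
Log2 fold change (x axis) between WT and the libraries labelled *fmo-4* OE (above 0 where the latter are higher) for the 21 proteases, with bars of 1 standard error, from the edgeR fit without a covariate (black circles) and with the division of the libraries by reads on short genes as a covariate (purple diamonds). Without the covariate the values run from -0.61 for *cpr-4* to 0.64 for *asp-8*, and with it *cpr-1*, *cpr-4*, *asp-1* and *asp-6* lie further below 0 with shorter bars.

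For the other abundant proteases the fold between the groups was smaller than the spread over the WT libraries. *cpr-4* had the lowest log2 fold change, -0.61 with a standard error of 0.35 (unadjusted p-value 0.129), and *cpr-1* had -0.48 with a standard error of 0.67 (0.496). *asp-6* had -0.21 with a standard error of 0.45, *asp-1* -0.20 with 0.23 and *cpr-5* 0.33 with 0.45. Without WT replicate 3, *cpr-1* turned to 0.46, *asp-6* to 0.37 and *asp-1* to 0.05, *cpr-5* went to 0.91 (unadjusted p-value 0.0276) and *cpr-4* to -0.12, so the sign or size of these values depended on that library. *cpl-1* had -0.19 with a standard error of 0.14, and stayed between -0.29 and -0.15 under the settings tried. *asp-3*, *asp-4* and *cpr-6* had -0.03, -0.08 and -0.04, with standard errors of 0.15, 0.20 and 0.15, and *cpz-1* and *cpz-2* had 0.20 and 0.05, with 0.29 and 0.21. Among the low-abundance genes, *cpr-3* and *asp-17*, known as targets of the cold-response factor ZIP-10, had 0.46 and 0.12 with standard errors of 0.36 and 0.55, from 53 to 155 and from 10 to 47 reads a library. *cpr-8* had 0.51 with 0.42.

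**Figure D4:**
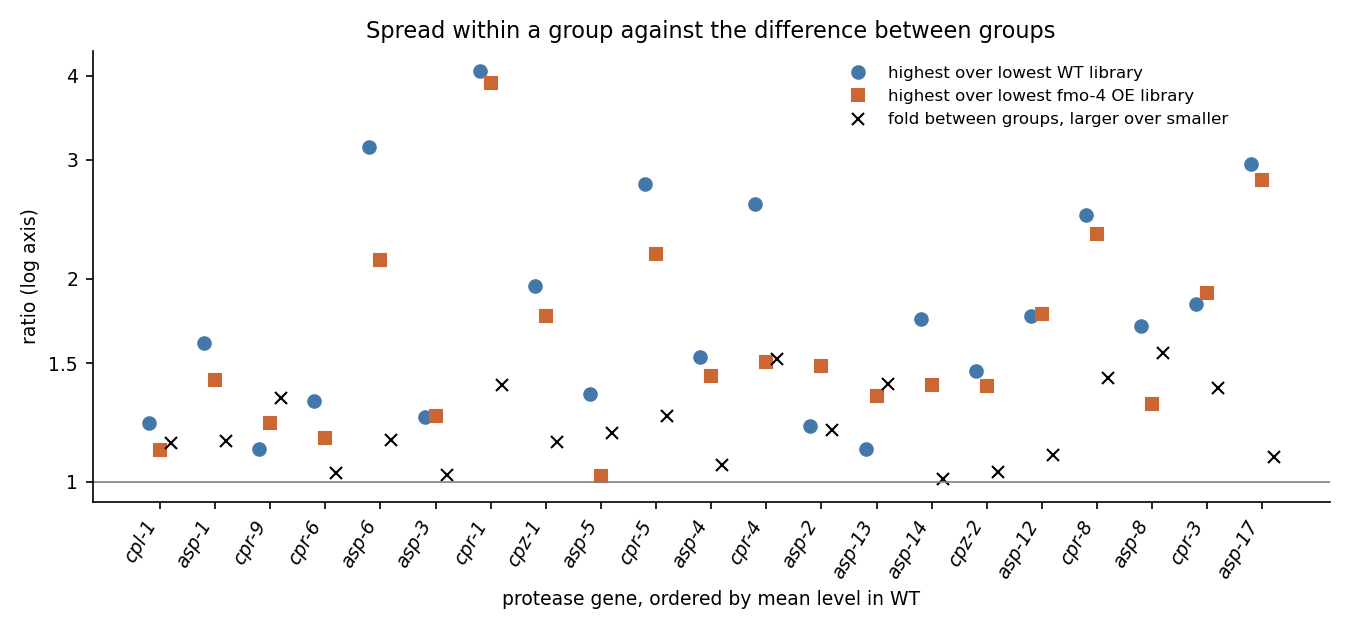
Ratio (log axis) of the highest to the lowest library within WT (blue circles) and within those labelled *fmo-4* OE (orange squares), and the fold between the groups in either direction (crosses), for the 21 proteases ordered by level in WT. The WT ratio reaches 4.06 for *cpr-1*, and the fold between groups lies above the WT ratio for *cpr-9* and *asp-13* only.

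Since the division by short genes crosses the labels, the proteases were also compared within each side of it, a choice made after the data were seen. On the high side, WT replicate 3 stands against *fmo-4* OE replicates 2 and 3, and on the low side WT replicates 1 and 2 stand against *fmo-4* OE replicate 1. *cpr-1* was lower on both sides, with 19767 in WT against 7171 and 11542, and 4869 and 5558 in WT against 2963. *cpr-4* was lower on both sides too, with 8153 against 3603 and 3946, and 3154 and 4187 against 2623. In all, 8 of the 21 proteases (*asp-1*, *asp-2*, *asp-5*, *asp-6*, *asp-13*, *cpr-1*, *cpr-4* and *cpr-9*) were lower on both sides, against 15.9% of all genes tested, and *asp-8* was higher on both sides, against 12%. *cpr-5* was lower on the high side, with 11345 against 10762 and 9851, and not on the low side, with 4105 and 4949.8 against 4952.

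With the division as a covariate in the edgeR fit, 7 of the 21 proteases were lower at an unadjusted p-value under 0.05, where 5.24% of all genes were, and 0 were higher, where 4.13% were. The 7 genes were *asp-1*, *asp-5*, *asp-6*, *asp-13*, *cpr-1*, *cpr-4* and *cpr-9*, all among the 14 abundant ones. Their standard errors ran from 0.10 to 0.18 in this fit, and those of the 7 less abundant proteases from 0.14 to 0.54. The share called among abundant genes in general was not counted. The log2 fold change of *cpr-1* was -0.95 (SE 0.18, unadjusted p-value 0.000918, adjusted 0.257), and that of *cpr-4* was -0.80 (SE 0.16, unadjusted p-value 0.00124, adjusted 0.295). *asp-6* had -0.51 with a standard error of 0.17 (0.0190, adjusted 0.417) and *asp-1* -0.37 with 0.10 (0.00683, adjusted 0.369). *asp-13* and *cpr-9* kept their values at -0.48 and -0.40, and *asp-5* had -0.29. After adjustment over all genes tested 0 proteases passed 0.05 in this fit as well, where 0.0895% of all genes did. WT replicate 3 was the only WT library on the high side, and *fmo-4* OE replicate 1 the only *fmo-4* OE library on the low side. The fit with the covariate was not repeated with single libraries left out, so how far its values rest on these libraries was not tested. *asp-3*, *asp-4*, *cpr-5*, *cpr-6* and *cpz-1* lay between -0.06 and 0.09, and the median was -0.13 over the proteases and -0.03 over all genes. Of the 10 gut markers, 6 were lower at an unadjusted p-value under 0.05 in the same fit, with a median of -0.30. Lower values were not limited to gut markers. Of 8 sperm markers 4 were lower, with a median of -1.43, and of 4 hypodermis markers 1 was. Of the oocyte and germline, body muscle, pharynx, neuron and coelomocyte markers 0 were lower. Whether the values of the proteases follow the amount of gut tissue was not tested.

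Other genes of protein digestion and the lysosome were read from lists in the fit without the covariate, and calls are at an unadjusted p-value under 0.05, where 4.32% of all genes were higher and 3.01% lower. For the cystatins, which inhibit cysteine proteases, *cpi-1* had a log2 fold change of -0.23 and *cpi-2* of 0.10, with standard errors of 0.20 and 0.21. Of 11 serine and prolyl carboxypeptidase genes (*ctsa* and *pcp*) compared of 12 in the table, 0 passed an unadjusted p-value of 0.05 in either direction, and their median was -0.20. Of 22 V-ATPase genes, all compared, 1 was lower, near the 3.01% of all genes, and the median was -0.15. This gene was *vha-6*, the subunit known from the gut lumen, with 5671, 4488 and 4310.1 normalized counts in WT and 4198, 3566 and 3087 in those labelled *fmo-4* OE, without overlap. Its log2 fold change was -0.42 (SE 0.17), with an adjusted p-value of 0.627. Of 36 genes for lysosomal enzymes and membrane proteins, out of 38 in the table, 1 was higher and 2 were lower, also near the shares of all genes (4.32% and 3.01%), with a median of -0.18. The higher one was *ppt-1*, a palmitoyl-protein thioesterase, with a log2 fold change of 0.90 and a standard error of 0.27, and the lower ones were the lipase genes *lipl-2* (-1.99 with 0.74) and *lipl-3* (-1.63 with 0.70). Of 14 transcription factors of the gut and lysosome, out of 16, 1 was higher (*pha-4*, 1.05 with a standard error of 0.42) and 1 was lower (*nhr-62*, -0.83 with 0.35), where 4.32% and 3.01% of all genes were. Counts of 1 or 2 genes in lists of this size are not read as results about the lists. *hlh-30*, the worm TFEB that drives lysosomal genes, had 0.35 with a standard error of 0.34. No gene of these lists passed 0.05 after adjustment over all genes tested.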

How the data were processed

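Whole-number read counts per gene were taken as deposited, together with the length of each gene model. The table further held a scaled signal, FPKM and the authors' own comparison (fold changes, p-values), none of which were used (66 columns of per-library values over all deposited tables). Per the labels, the submitters' notes name fastp, HISAT2, StringTie and featureCounts, and the genome build and versions are not given in the sources used here. Of the 20138 genes, 19873 were matched to WormBase identifiers for their names.

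The edgeR package 4.0.16 in R 4.3.3 was run with filterByExpr (13413 genes left), TMM, robust dispersions, glmQLFTest without a covariate and Benjamini-Hochberg adjustment. The standard error is the log2 fold change over the square root of F. The biological coefficient of variation was 0.297. The script was tested on simulated data. Alternatives were DESeq2 1.42.0, other normalization factors and filters, replicate number as a covariate, and each library left out. A fit with the division of libraries by reads on short genes as a covariate was added after seeing the data.

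Members and lists were chosen with earlier results of these data known. Described in full were proteases at an unadjusted p-value under 0.05, the 10 most abundant in WT, 14 well-known members and those whose groups did not overlap. Normalized counts were scaled to the mean TMM-adjusted library size. P-values set the difference between groups against the spread between these libraries, with dispersions that draw in part on all genes tested.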

Additional observations from a re-analysis of the deposited data

How the results depend on the processing

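Over the 16 proteases described in full and 13 alternative settings each, 208 values in all, 169 kept their direction and their side of an unadjusted p-value of 0.05, 16 came to pass it, 3 no longer passed it and 20 changed sign. The count of higher proteases at that threshold, 0, became 1 with DESeq2, without normalization factors, with no filter, with at least 10 counts in every library and with the replicate block, and lay between 0 and 2 with single libraries left out (2 without WT replicate 3, 1 without *fmo-4* OE replicate 1). The count of lower ones, 2, lay between 1 and 4 with single libraries left out (4 without WT replicate 1, and 1 when *fmo-4* OE replicate 2 or 3 or WT replicate 3 was left out), and was 7 with the library division as a covariate. Over these settings 1.59% to 6.96% of all genes were higher and 1.63% to 5.24% lower. The count past an adjusted p-value of 0.05 was 0 under every setting. The median log2 fold change, -0.04, was 0.02 with no filter and lay between -0.15 and 0.05 with single libraries left out. The causes were not tested.

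Log2 fold changes that changed sign when single libraries were left out spanned -0.33 to 0.055 for *asp-1*, -0.12 to 0.057 for *asp-3*, -0.25 to 0.045 for *asp-4*, -0.52 to 0.37 for *asp-6*, -0.98 to 0.46 for *cpr-1*, -0.15 to 0.061 for *cpr-6*, -0.044 to 0.41 for *cpz-1* and -0.10 to 0.18 for *cpz-2*. With the division as a covariate, *asp-3* was at 0.0043, *asp-4* at 0.088, *cpr-5* at -0.0054 and *cpz-1* at -0.011, and with no filter *asp-3* was at 0.00068.

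Deviations from the group means correlated at 0.38, -0.30 and 0.34 between libraries with replicate numbers 1, 2 and 3, and WT replicates 2 and 3 correlated best with another number, so the numbers were not taken as pairs. With the replicate block, 1 protease was higher (*asp-8*, 0.66) and 3 were lower, *cpr-4* (-0.51) beside *asp-13* and *cpr-9*. Genes of few reads, *asp-17* and *cpr-3* among those compared, are limited by depth.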
